A study of Rattus norvegicus with 50 samples.

Results

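The Reg3 genes of the rat, Reg3a, Reg3b and Reg3g, were followed in the mammary gland with and without a past pregnancy. They are 3 of the 18166 genes that the array names by a single gene symbol, each is measured by 1 probeset, and they were selected on the log2 signals of the control rats, as lower in parous than in nulliparous glands. The values of these 10 control rats are therefore given only as a description, and tests of the members use the other 40 rats. The selection rule covers all 10 treatment by parity groups but gives only the control glands as the reason for the choice. Earlier results of the 40 rats were known when it was written, so they are not fully independent of it. Female Sprague-Dawley rats received the phthalate DEP (diethyl phthalate), the paraben MPB (methyl paraben), the antibacterial agent TCS (triclosan), all 3 of them as a mixture (MIX) or the olive oil vehicle (OIL) from postnatal day (PND) 1 to PND 180, through the milk of their gavaged dams until weaning at PND 28 and by their own oral gavage after it. Within each treatment 5 parous rats, mated at PND 97 and exposed through pregnancy and lactation, stood beside 5 nulliparous rats of the same age, which made 10 groups and 50 rats, with 1 array for each rat. All were sacrificed at PND 181 at a random stage of the estrous cycle, when the pups of the parous rats were already weaned, and RNA of the fifth caudal mammary glands was measured. In such whole tissue, fewer cells of a type and less RNA per cell cannot be told apart.

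Reg3 proteins are small secreted C-type lectins. They are best known from the gut, where epithelial cells of the mouse release Reg3b and Reg3g towards the lumen and Reg3g kills Gram-positive bacteria by binding their peptidoglycan, and from the pancreas, where the rat proteins were named pancreatitis-associated proteins. In the mouse gut their transcription is driven by interleukin 22 and, within the cell, by the transcription factor STAT3, and EXTL3 has been described as a receptor of REG3A in human skin cells.

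In the rat genome the 3 genes lie in one cluster on chromosome 4 (RefSeq gene table, build GRCr8). Reg3b spans chr4:112419776-112423014 and Reg3a chr4:112430397-112433163 on the plus strand, with the pseudogene Reg3b-ps1 between them and Reg1a after them, and Reg3g spans chr4:112482183-112484738 on the minus strand, so that the cluster from Reg3b to Reg3g covers 64963 bases. The stretch from 150 bases before to 10 bases after each annotated start is shown, from RefSeq, because the members behaved differently across the rats and these are the sequences next to their starts. Capitals mark ATGCCAAG, the longest run shared by all 3 windows, ATAAAA, the letters of a TATA-type box, and TTCNNNGAA, the letters of a STAT-type site.
Reg3a (chr4:112430247-112430406, plus strand): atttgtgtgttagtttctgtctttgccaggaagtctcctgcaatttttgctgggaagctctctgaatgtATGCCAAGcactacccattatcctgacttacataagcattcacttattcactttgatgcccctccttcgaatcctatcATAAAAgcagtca
Reg3b (chr4:112419626-112419785, plus strand): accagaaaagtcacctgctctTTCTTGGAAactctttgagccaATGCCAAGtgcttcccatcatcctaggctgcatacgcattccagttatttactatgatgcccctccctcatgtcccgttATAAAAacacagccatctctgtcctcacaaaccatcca
Reg3g (chr4:112484729-112484888, minus strand): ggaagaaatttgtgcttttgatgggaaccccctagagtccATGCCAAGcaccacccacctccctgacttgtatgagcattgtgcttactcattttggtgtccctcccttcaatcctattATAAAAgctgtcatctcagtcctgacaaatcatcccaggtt
Of 33469 promoter windows of 160 bases in the same table, 0.717% held ATGCCAAG on either strand, 11.6% held ATAAAA and 4.69% held TTCNNNGAA. ATAAAA began 31 bases before the start of Reg3g and 28 bases before that of Reg3b, but only 3 bases before the annotated start of Reg3a, for which the table gives 2 starts and the first is shown. Counted from the first base of ATGCCAAG, however, ATAAAA began 78 bases later in Reg3a, 79 bases later in Reg3b and 79 bases later in Reg3g. TTCNNNGAA occurred once, upstream of ATGCCAAG in Reg3b, where its fixed letters read the same on both strands. The windows of Reg3b and Reg3g were identical at 64.1% of their aligned positions, against 55.3% for Reg3a and Reg3b and 53.9% for Reg3a and Reg3g. How far such likeness extends to the array's probes, and so to shared signal between the 3 probesets, was not tested.

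All values are log2 signals as deposited, on which 1 unit is a 2-fold difference. Over the 50 rats Reg3b had a mean of 8.42 and ranged between 5.45 and 11.68, Reg3g had a mean of 7.71 with a range of 5.65 to 11.28, and Reg3a had a mean of 6.57 with a range of 5.07 to 9.54. Few genes varied as much between arrays: by their SD Reg3b ranked 38th, Reg3g 73rd and Reg3a 258th of 18166. These SDs include differences between the RNA kits described below and between groups. For Reg3b the SD was 1.88 over all 50 rats. Within 1 parity and kit of the 40 chemical-exposed rats it was 0.62 to 1.13. As probes differ in brightness, these means do not order the genes by abundance. The 30th percentile of all gene values in the 40 chemical-exposed rats was 6.32, and Reg3a was above it in 4 of 20 parous and 14 of 20 nulliparous rats, Reg3b in 15 and 19, and Reg3g in 11 and 16.

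RNA was extracted with a Zymo or a Promega kit, as the labels state for each rat, with 4 Zymo rats and 1 Promega rat in each DEP group and 2 Zymo and 3 Promega rats in every other group. Over the 40 chemical-exposed rats, 38.7% of the genes differed between the kits by 1.5-fold or more with a p, adjusted by the Benjamini-Hochberg method, under 0.25 (limma, the thresholds of the study). The median absolute kit difference over all genes, called or not, was 0.39. Reg3b was higher in Zymo rats by 3.06 (SE 0.24, adjusted p = 5.73e-14) and Reg3a by 1.74 (SE 0.19, adjusted p = 1.94e-10), both among the genes called, whereas the difference of Reg3g was 0.24 (SE 0.53, adjusted p = 0.692). The kit was therefore a term in every fit, and because each parous group held the same kits as its nulliparous counterpart, it did not enter the parity estimates themselves. Among markers of the tissues best known for Reg3, none of 9 measured genes of pancreatic acinar cells (median parity difference 0.01, score −0.26 to 0.24 in parous and −0.22 to 0.29 in nulliparous rats) and none of 6 of intestinal epithelium (0.05, −0.24 to 0.24 and −0.25 to 0.46) were called between parous and nulliparous rats.

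Reg3a fell with parity in all 4 chemical treatments. In DEP-treated rats it was 6.06, 5.83, 5.94, 6.03 and 5.10 in the parous group and 7.14, 6.90, 5.33, 8.74 and 9.08 in the nulliparous group. In MPB-treated rats it was 5.34, 5.22, 5.37, 6.59 and 6.45 in the parous group and 5.59, 6.32, 6.30, 8.35 and 9.43 in the nulliparous group. The lowest nulliparous values came from Promega rats, and both groups overlapped in each of these treatments. In TCS-treated rats Reg3a was 5.08, 5.39, 5.27, 6.40 and 5.98 in the parous group, all below the 6.71, 6.74, 6.51, 9.01 and 9.04 of the nulliparous group. In MIX-treated rats it was 5.07, 5.14, 6.39, 5.17 and 6.23 in the parous group and 5.97, 6.23, 7.25, 8.04 and 8.68 in the nulliparous group, with an overlap again between Zymo parous and Promega nulliparous rats. The share of all genes with every parous rat of a treatment below every nulliparous rat was not counted.

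**Figure D1:**
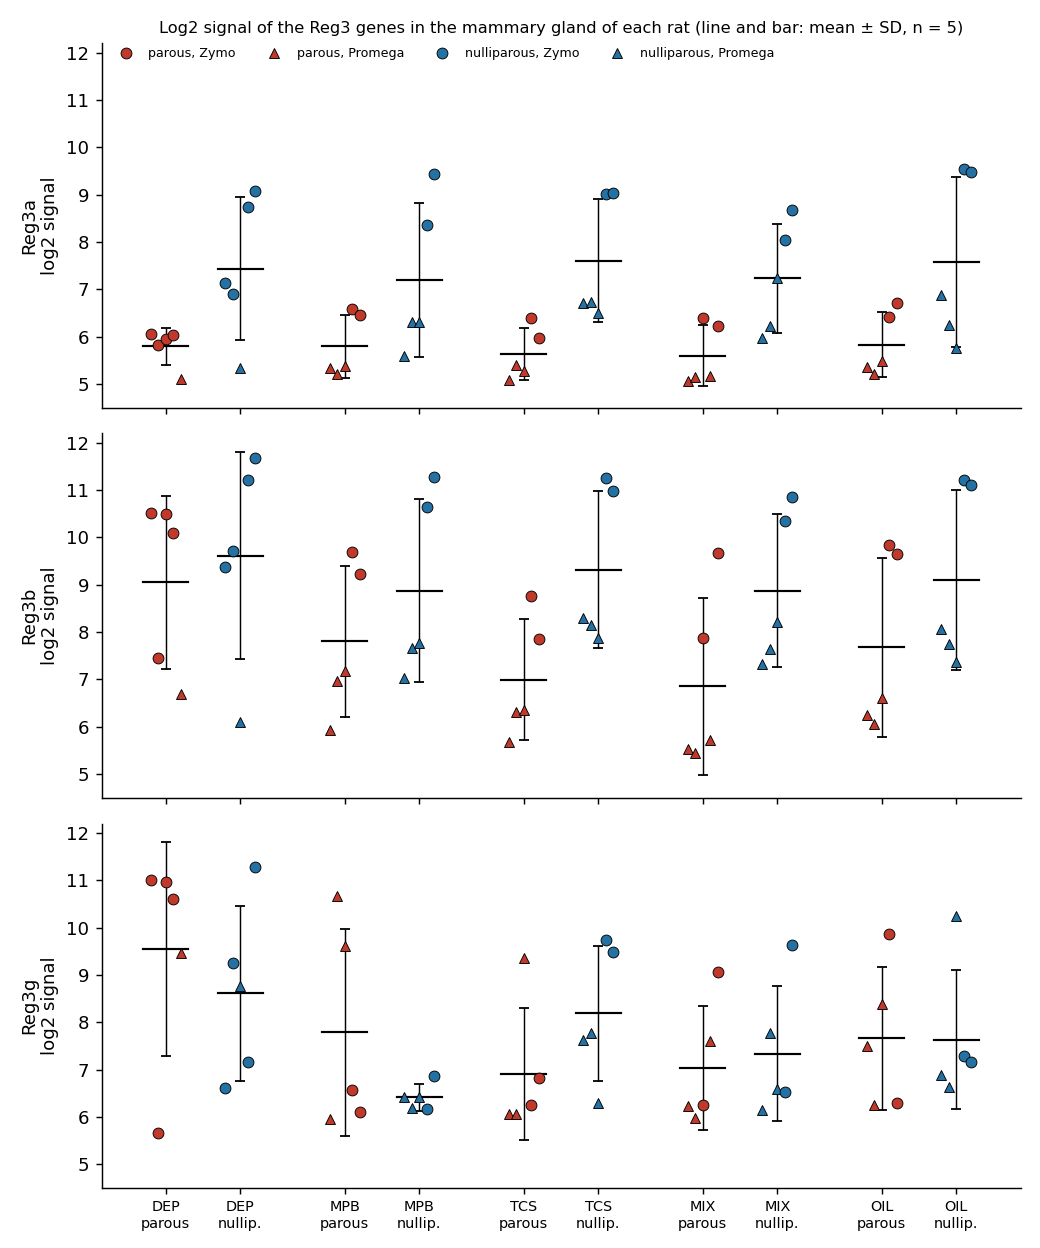
Log2 signal (y axis) of Reg3a, Reg3b and Reg3g in each of the 50 rats, by treatment and parity (x axis), with circles for Zymo and triangles for Promega RNA and a line and bar for the mean ± SD of 5 rats. Parous rats lay lower than nulliparous rats of the same kit for Reg3a in each treatment, whereas Reg3g had high and low rats in both parities. The share of all genes that lay as Reg3a did was not counted.

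Within a kit the separation was close to complete. Among Zymo rats Reg3a averaged 6.19 ± 0.257 (range 5.83 to 6.59) in parous and 8.44 ± 0.845 (range 6.90 to 9.43) in nulliparous rats (SD, n = 10 each), with no overlap. This held for 2 genes, 0.011% of those measured. Among Promega rats Reg3a averaged 5.22 ± 0.120 (range 5.07 to 5.39) in parous and 6.29 ± 0.565 (range 5.33 to 7.25) in nulliparous rats (SD, n = 10 each), where DEP_null_29, at 5.33, lay within the parous range. Here 0.0165% of the genes had all parous rats below all nulliparous rats, and Reg3a was not among them. The SDs of parous rats are those of low signals, since 16 of 20 were not above the 30th percentile, and do not show how alike these rats were.

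Over the 40 chemical-exposed rats, Reg3a fell by 1.66 on the log2 scale in parous rats, a 3.17-fold difference (SE 0.18, 95% confidence interval −2.02 to −1.31, adjusted p = 5.09e-07, limma), and ranked first of all genes by p. Reg3b, the rat pancreatitis-associated protein first described in pancreatic juice, was lower by a factor of 2.82 (−1.50, SE 0.23, interval −1.95 to −1.04, adjusted p = 0.000129) and ranked 16th. Reg3g differed by 0.18 (SE 0.49, interval −0.82 to 1.18, adjusted p = 0.889). The call was thus made for 2 of the 3 members, against 0.495% of all genes in either direction and 0.336% lower in parous rats. The interval of Reg3g ends above the estimates of Reg3a and Reg3b. The parity difference of Reg3b did not pass without a kit term (adjusted p = 0.345) or among the Zymo rats alone (−1.74, adjusted p = 0.282), whereas that of Reg3a passed with either kit alone.

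**Figure D2:**
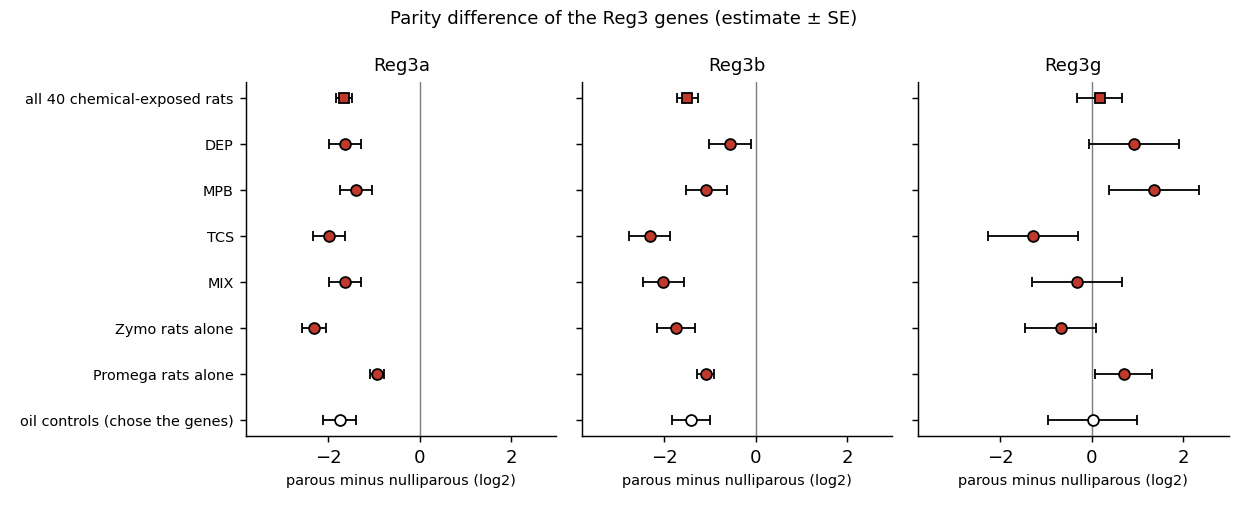
Parity difference (x axis, log2 signal of parous minus nulliparous rats, estimate ± SE) of the 3 genes over all 40 chemical-exposed rats, within each chemical, within each RNA kit and, as open circles, in the oil controls that chose the genes. Reg3a lay between −1.98 and −1.40 in the 4 chemicals, Reg3b between −2.32 and −0.56, and Reg3g on both sides of 0.

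Within the chemicals, which share no rats, the log2 difference of Reg3a between parous and nulliparous rats was −1.65 in DEP, −1.40 in MPB, −1.98 in TCS and −1.63 in MIX rats (SE 0.35 each; adjusted p = 0.0524, 0.137, 0.043 and 0.205, limma) and was called in each. All genes were called at a share of 1.93% within DEP, 1.03% within MPB, 0.0495% within TCS and 0.0385% within MIX. The call of Reg3a was lost without each of MPB_null_128, MPB_null_129, MPB_null_130, MPB_null_131, MPB_par_139 and MPB_par_141 in MPB (−1.47 to −1.09), and without 7 rats in MIX, of which 5 were MIX rats. Reg3b was called in TCS (−2.32, SE 0.45, adjusted p = 0.0461) and MIX rats (−2.02, SE 0.45, adjusted p = 0.231), but not in MPB (−1.08, SE 0.45, adjusted p = 0.355) or DEP rats (−0.56, SE 0.45, adjusted p = 0.564). Its MIX call was lost without any of 15 of the 40 rats, 6 of them MIX rats, while the difference stayed between −2.28 and −1.81.

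The rats behind these differences of Reg3b can be seen one by one. In TCS-treated rats Reg3b was 5.68, 6.32, 6.36, 8.77 and 7.85 in the parous group and 8.30, 8.16, 7.88, 11.26 and 10.99 in the nulliparous group. In MIX-treated rats it was 5.52, 5.45, 7.88, 5.73 and 9.68 in the parous group and 7.33, 7.64, 8.21, 10.35 and 10.85 in the nulliparous group. Every parous rat of these treatments was below every nulliparous rat of its own kit. These cells held only 2 or 3 rats of each parity, and the share of all genes that separated in this way was not counted. In MPB-treated rats Reg3b was 5.94, 6.97, 7.17, 9.70 and 9.23 in the parous group and 7.04, 7.67, 7.77, 10.64 and 11.27 in the nulliparous group, where only the Promega rats of both parities overlapped within a kit. In DEP-treated rats it was 10.52, 7.45, 10.50, 10.10 and 6.70 in the parous group and 9.37, 9.72, 6.11, 11.21 and 11.68 in the nulliparous group. Here 3 Zymo parous rats stood above 2 Zymo nulliparous rats, and the Promega rat was higher in the parous group.

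The parity differences of the 4 chemicals were also compared with each other. An F test of the interaction gave adjusted p = 0.943 for Reg3a, 0.787 for Reg3b (unadjusted p = 0.0317) and 0.81 for Reg3g (limma), and 0 genes, 0%, were called at an adjusted p under 0.25, with 1077 at an unadjusted p under 0.05. A larger fall of Reg3b in TCS than in DEP rats is therefore not established by this test. Among parous rats the 4 chemicals differed at adjusted p = 0.573 for Reg3a, 0.285 for Reg3b and 0.275 for Reg3g, where 21.2% of the genes were called, and among nulliparous rats at 0.589, 0.702 and 0.612, where 3.39% were called. Without DEP_par_38 the parous F test was called for Reg3b (adjusted p = 0.0185) and Reg3g (adjusted p = 0.0298).

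The kits gave parity differences of unlike size for Reg3a. Its log2 difference was −2.31 among Zymo rats (SE 0.26, adjusted p = 0.00217) and −0.94 among Promega rats (SE 0.15, adjusted p = 0.0145). A parity by kit term in the fit of 40 rats, which was added after the data were seen and is not the plain difference of the estimates from the separate kits, was −1.34 (SE 0.30, unadjusted p = 8.55e-05, the second smallest of all genes, adjusted p = 0.501, limma). It was not called, nor was that of any gene (0%, with 1803 genes at an unadjusted p under 0.05). For Reg3b the term was −0.58 (adjusted p = 0.659) and for Reg3g −1.53 (adjusted p = 0.588). All 10 parous Promega rats were below the 30th percentile of 6.32 for Reg3a.

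Reg3g, in the mouse the member with the clearest bactericidal role, had no called parity difference with all rats. In DEP-treated rats it was 11, 5.65, 10.97, 10.61 and 9.47 in the parous group and 6.61, 9.25, 8.77, 7.16 and 11.28 in the nulliparous group. In MPB-treated rats it was 5.96, 10.66, 9.62, 6.57 and 6.11 in the parous group and 6.42, 6.19, 6.41, 6.17 and 6.87 in the nulliparous group. High and low rats thus occurred side by side within a group, and the groups overlapped. In TCS-treated rats it was 6.06, 6.07, 9.35, 6.24 and 6.82 in the parous group and 7.63, 7.78, 6.29, 9.74 and 9.49 in the nulliparous group. In MIX-treated rats it was 6.23, 5.98, 6.24, 7.61 and 9.07 in the parous group and 6.15, 7.78, 6.59, 6.52 and 9.64 in the nulliparous group. Its parity differences were 0.93, 1.37, −1.28 and −0.31 in DEP, MPB, TCS and MIX rats (SE 0.99 each; adjusted p = 0.677, 0.593, 0.837 and 1), and the first was 1.92 and called (adjusted p = 0.193) without DEP_par_38, the parous DEP rat at 5.65.

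The rats that were high for Reg3g were those with a strong lymphoid signal. A lymphoid score, the mean of centred log2 signals of 11 measured genes of T and B cells, left its widest gap between 28 rats at −1.61 to −0.49 (13 parous, 15 nulliparous) and 22 rats at 0.10 to 2.48 (12 parous, 10 nulliparous). Reg3g ranged between 7.49 and 11.28 in the 22 lymphoid-rich rats (median 9.48) and between 5.65 and 7.28 in the 28 lymphoid-poor rats (median 6.30), so that no rat of one set reached the other. These sets were drawn from the data and are no groups of the study, and no test was made between them. The share of all genes that separate the sets in the same way was not counted, so the separation is not shown to be particular to Reg3g. Reg3a did not separate in this way, with 5.10 to 9.08 in lymphoid-rich and 5.07 to 9.54 in lymphoid-poor rats, nor did Reg3b, with 5.73 to 11.68 and 5.45 to 11.27. DEP_par_38 was the only lymphoid-poor rat of the parous DEP group, with a score of −1.06 against 2.08 to 2.48 in the other 4.

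**Figure D3:**
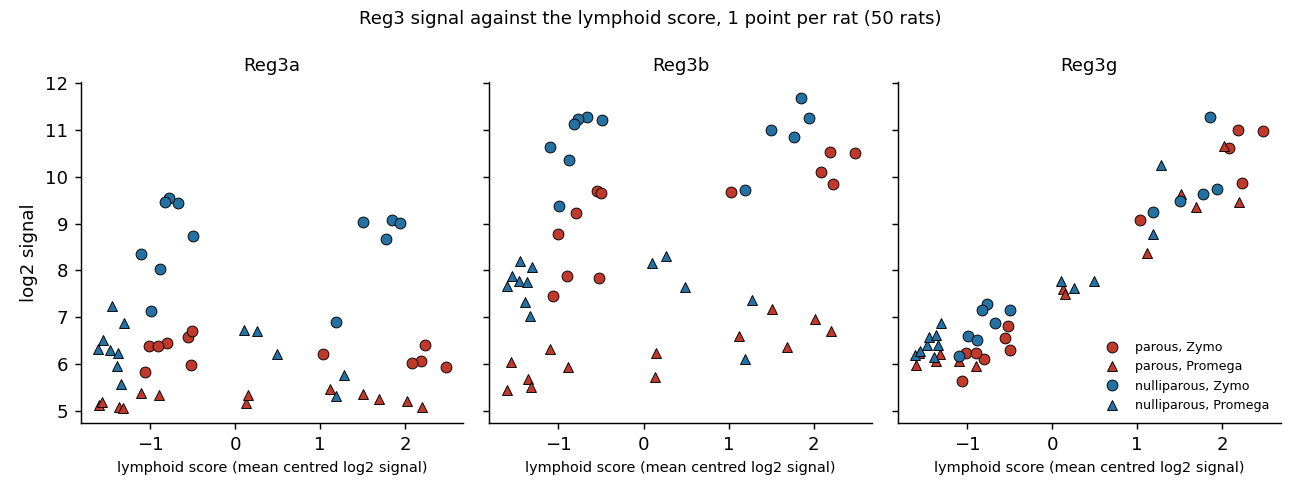
Log2 signal of each Reg3 gene (y axis) against the lymphoid score (x axis, mean of centred log2 signals), with 1 point for each of 50 rats, coloured by parity and shaped by RNA kit. Reg3g lay between 7.49 and 11.28 in the lymphoid-rich and between 5.65 and 7.28 in the lymphoid-poor rats, while Reg3a was set apart by parity and kit instead.

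Within each set, the 18 lymphoid-rich and 22 lymphoid-poor rats given chemicals were taken without the oil controls, the mean of each parity and kit was removed, and 18 correlations were computed with permutation tests within these cells. Chemicals were neither removed nor kept apart in the permutations. All 18 correlations can therefore hold differences between chemicals as well as between rats of one chemical. The sets and these correlations were added after the data were seen. Reg3g followed the lymphoid score in the 18 lymphoid-rich rats (Pearson r = 0.84, permutation p = 0.00104, adjusted p = 0.00864, Spearman rho = 0.816, permutation p = 0.00086, adjusted p = 0.00774; r = 0.651 without the 2 rats farthest from the median score). It did so too in the 22 lymphoid-poor rats (r = 0.663, permutation p = 0.00175, adjusted p = 0.00864, rho = 0.578, permutation p = 0.0116, adjusted p = 0.0418; r = 0.715 without 2 rats). In lymphoid-rich and lymphoid-poor rats in that order, r was −0.047 (permutation p = 0.754, rho = −0.259, p = 0.28) and 0.289 (permutation p = 0.23, rho = 0.38, p = 0.104) for Reg3a. For Reg3b it was 0.253 (permutation p = 0.304, rho = 0.179, p = 0.507) and 0.422 (permutation p = 0.087, rho = 0.417, p = 0.087), with no adjusted p under 0.05 for either gene. The parity difference of Reg3g was −0.26 with the score as a covariate (adjusted p = 0.344, limma), where the spread was smaller (SE 0.14), and those of Reg3a (−1.70) and Reg3b (−1.60) kept their calls. None of the 11 lymphoid genes passed between parous and nulliparous rats, with a median of 0.37 over both kits, −0.40 among Zymo and 0.88 among Promega rats.

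Reg3a and Reg3b moved together across rats of the same parity and kit. In the same chemical-exposed rats, after removal of parity and kit means, their signals correlated with r = 0.779 in the 18 lymphoid-rich rats (permutation p = 0.00449, adjusted p = 0.0162, rho = 0.631, permutation p = 0.0106, adjusted p = 0.0418; r = 0.502 without 2 rats) and with r = 0.802 in the 22 lymphoid-poor rats (permutation p = 1e-05, the smallest that 100000 permutations give, adjusted p = 0.00018, rho = 0.894, permutation p = 1e-05; r = 0.751 without 2 rats). Reg3g and Reg3b gave r = 0.397 (permutation p = 0.0943, rho = 0.395, p = 0.121) in lymphoid-rich and 0.345 (permutation p = 0.25, rho = 0.279, p = 0.29) in lymphoid-poor rats. The planned correlation of this pair, over residuals of all 50 rats without a split into sets, was 0.555, given as a description. Reg3g and Reg3a gave r = 0.045 (permutation p = 0.854, rho = −0.072, p = 0.77) in lymphoid-rich and 0.325 (permutation p = 0.229, rho = 0.367, p = 0.14) in lymphoid-poor rats. The genes whose deviations within groups were most like the mean of the 3 members, over all 50 rats, were Dnase1l3 (r = 0.911), Lpxn (0.908), Evi2a (0.904), P2ry13 (0.903) and Cd83 (0.902). Reg3g weighs most in this mean, as its spread within groups was the widest. In the fit of 50 rats the SE of the parity difference was 0.49 for Reg3g, 0.21 for Reg3b and 0.18 for Reg3a. Member by member, a listing added after the data were seen, Reg3g was most like Cd40lg (r = 0.980) and Cd2 (0.979), both of T cells, Reg3b most like Batf (0.869), a transcription factor of the AP-1 family, and Reg3a most like Nif3l1 (0.666) and the epithelial defensin Defb1 (0.665). These likenesses span both lymphoid sets of rats and are given, over 50 rats for the mean and 48 for single members, as a description.

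No other Reg gene on the array was called. Reg1a, which lies between Reg3a and Reg3g, was between 4.39 and 5.53 in all 50 rats, and Reg4, another member of the family, between 4.69 and 5.43, and neither exceeded the 30th percentile in any of the 40 chemical-exposed rats. Reg1a was lower in parous rats by 0.37 (4.71 ± 0.151 in parous and 5.08 ± 0.269 in nulliparous rats, SD, n = 20 each; SE 0.07, adjusted p = 0.00206, limma), which is under the fold limit, and Reg4 differed by 0.09 (adjusted p = 0.324). Extl3, the putative receptor, had a log2 difference of 0.00 (SE 0.08, adjusted p = 0.996), and Gp2, a pancreatic and intestinal glycoprotein, −0.35 (SE 0.13, adjusted p = 0.147). Of this list 0 of 4 genes were called.

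Genes upstream of Reg3 in the gut were not called. Of 24 measured genes of the interleukin 22, interleukin 17 and STAT3 axis, 0 were called (median 0.06, against 0.00 over all genes). Among them were Stat3 (−0.02, SE 0.06, adjusted p = 0.926) and Il6st, the shared receptor subunit of the interleukin 6 family (−0.02, SE 0.06, adjusted p = 0.916). Over the 40 chemical-exposed rats Il22 (mean 6.06), Il17a (4.92), Il17f (5.89), Il23r (4.84) and Il6 (5.82) averaged below the 30th percentile of 6.32. At such low signals a missing call does not show that these genes were unchanged. The activity of the axis was not tested. Of 21 other secreted antimicrobial proteins and related genes, 0 fell, 1 rose and 20 did not pass (median −0.09). The exception was Pigr, which carries immunoglobulin A across epithelia (1.08 higher in parous rats, SE 0.15, adjusted p = 3.01e-05, limma). Lcn2, an iron-scavenging lipocalin of epithelium and neutrophils, had a log2 difference of −0.37 (adjusted p = 0.0663) and Defb1 −0.12 (adjusted p = 0.606).

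Markers of the cells that could carry the signal were set beside it. All 17 measured epithelial genes had lower estimates in parous rats, but 0 were called (median −0.26), with Krt19 at −0.43 (SE 0.12, adjusted p = 0.0356) and Spint2 at −0.20 (SE 0.11, adjusted p = 0.371). Their score, the mean of centred log2 signals, ranged from −1.28 to 0.65 in parous and from −0.78 to 0.44 in nulliparous rats. Reg3a followed this score in the 18 lymphoid-rich rats (r = 0.527, permutation p = 0.00192, adjusted p = 0.00864, rho = 0.581, permutation p = 0.00607, adjusted p = 0.0364; r = 0.616 without 2 rats), with r = 0.316 (permutation p = 0.136, rho = 0.329, p = 0.148) in the 22 lymphoid-poor rats. Reg3b gave r = 0.081 (permutation p = 0.736, rho = 0.032, p = 0.902) in lymphoid-rich and 0.599 (permutation p = 0.0392, adjusted p = 0.101, rho = 0.561, p = 0.0396) in lymphoid-poor rats. Reg3g gave r = −0.605 (permutation p = 0.0281, adjusted p = 0.0843, rho = −0.552, p = 0.0316) and −0.077 (permutation p = 0.819, rho = −0.033, p = 0.901), in the same order. Differences between chemicals were not removed from these correlations either. With the score as a covariate the parity difference was −1.67 for Reg3a and −1.59 for Reg3b, both called, and −0.54 for Reg3g (adjusted p = 0.751). Of 8 genes of hormone-sensing luminal cells, 2 fell, the epidermal growth factor receptor ligand Areg (−1.03, SE 0.21, adjusted p = 0.00398) and the progesterone receptor Pgr (−0.79, SE 0.26, adjusted p = 0.0889), and 6 did not pass. No gene was called among 5 of luminal progenitors (median −0.21), 11 of milk proteins (−0.02), 6 of basal cells (−0.12), 9 of macrophages (−0.16), 6 of neutrophils (−0.09), 5 of skin keratinocytes (0.05), 7 of adipocytes (−0.30, with all 7 estimates below 0) and 3 of skeletal muscle (0.46). Over all genes 61 fell, 29 rose and 18076 did not pass.

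**Figure D4:**
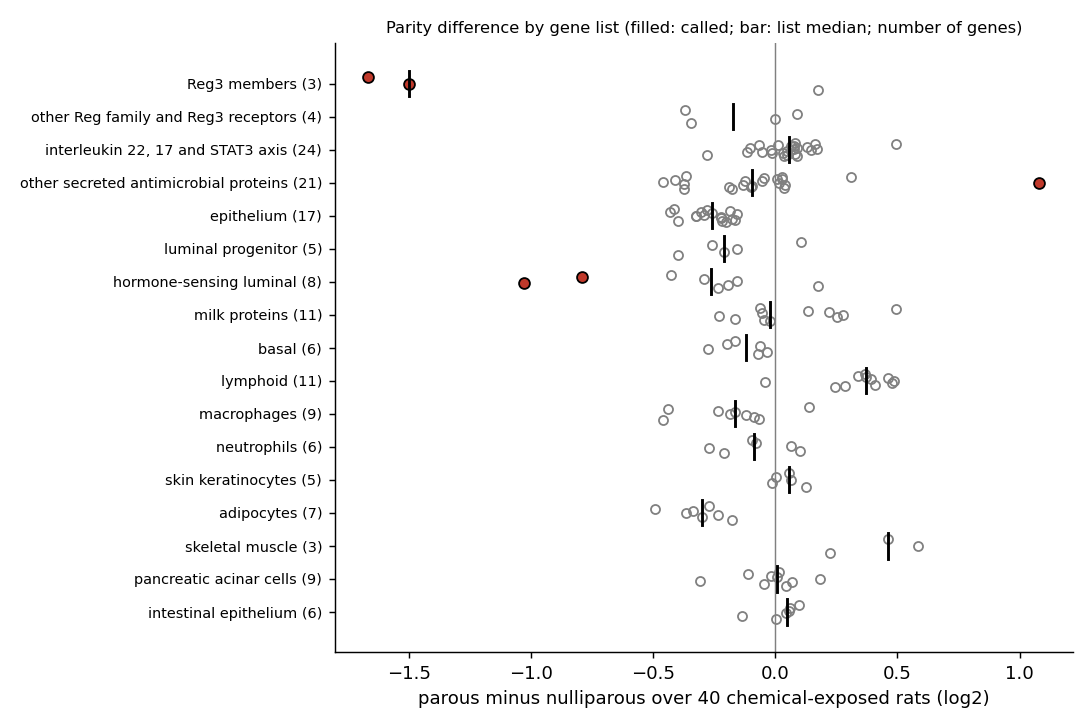
Log2 difference between parous and nulliparous rats over the 40 chemical-exposed rats (x axis) for each gene of each list (y axis, with the number of measured genes), with called genes filled and a bar at the list median. Reg3a at −1.66 and Reg3b at −1.50 lay lower than any gene of the other 16 lists, and Pigr at 1.08 higher. Outside the lists, and so not drawn, Fgg lay lower still at −2.15.

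Within a set of like lymphoid signal and a kit, the ranges of Reg3a in parous and nulliparous rats of all 5 treatments were apart in 3 of the 4 cells. In Zymo rats Reg3a ranged between 5.94 and 6.41 in 5 parous and between 6.90 and 9.08 in 5 nulliparous rats where the lymphoid signal was high, and between 5.83 and 6.72 in 7 parous and between 7.14 and 9.54 in 7 nulliparous rats where it was low. In lymphoid-poor Promega rats it ranged between 5.07 and 5.39 in 6 parous and between 5.59 and 7.25 in 8 nulliparous rats. In lymphoid-rich Promega rats, at 5.10 to 5.48 in 7 parous and 5.33 to 6.74 in 5 nulliparous rats, the ranges overlapped. Reg3b of lymphoid-poor Promega rats was between 5.45 and 6.32 in parous and between 7.04 and 8.21 in nulliparous rats, with no overlap. Its ranges overlapped in the other 3 cells, with 5.73 to 7.17 in parous and 6.11 to 8.30 in nulliparous lymphoid-rich Promega rats, 9.68 to 10.52 and 9.72 to 11.68 in lymphoid-rich Zymo rats, and 7.45 to 9.70 and 9.37 to 11.27 in lymphoid-poor Zymo rats. Reg3g overlapped in all 4 cells, for instance with 5.96 to 6.25 in 6 parous and 6.15 to 6.88 in 8 nulliparous lymphoid-poor Promega rats. Oil controls, which chose the members, are part of these ranges, and no test was made on them. The share of all genes with ranges apart in such small cells, of 5 to 8 rats for each parity, was not counted.

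In the oil controls themselves, Reg3a was 5.35, 5.20, 5.48, 6.41 and 6.72 in the parous group and 6.88, 6.25, 5.77, 9.54 and 9.47 in the nulliparous group, a log2 difference of −1.75 that was the second lowest of the 18166 genes. Reg3b was 6.25, 6.05, 6.61, 9.84 and 9.65 in the parous group and 8.07, 7.75, 7.37, 11.22 and 11.12 in the nulliparous group, a difference of −1.42 that was the 5th lowest. Parous rats were below nulliparous rats of the same kit in both genes. The share of all genes that separated in this way, in cells this small, was not counted. Reg3g was 7.49, 6.25, 8.38, 9.86 and 6.30 in the parous group and 6.88, 6.62, 10.24, 7.28 and 7.15 in the nulliparous group, a difference of 0.02. The selection as lower in parous controls thus applied to Reg3a and Reg3b, but not to Reg3g. No test was made on these values.

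Set against the same oil controls, the 4 chemicals left Reg3a close to its control level in parous rats given MPB (−0.04), TCS (−0.21) or MIX (−0.23) and lower in those given DEP (−0.77). In nulliparous rats its differences were −0.88 with DEP, −0.39 with MPB, 0.02 with TCS and −0.35 with MIX. For Reg3b they were 0.12, 0.12, −0.69 and −0.83 in parous and −0.74, −0.23, 0.21 and −0.23 in nulliparous rats, in the order DEP, MPB, TCS and MIX. For Reg3g they were 1.81, 0.13, −0.74 and −0.63 in parous and 0.90, −1.22, 0.55 and −0.30 in nulliparous rats, in the same order. The DEP groups held more Zymo rats than the controls, which the kit term accounts for only as far as kit differences are alike in all groups. For Reg3a they were not alike. Parous DEP and oil rats averaged 5.96 and 6.56 with Zymo, and 5.10 (1 rat) and 5.34 with Promega. Nulliparous DEP and oil rats averaged 7.97 and 9.51 with Zymo, and 5.33 (1 rat) and 6.30 with Promega. The fitted DEP difference was thus larger than within either kit in parous rats, and smaller than within either kit in nulliparous rats. The comparisons of one parity share their controls, which also chose the members, so these differences are a description without a test.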

How the data were processed

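RNA of 50 rats was measured on Affymetrix Rat Gene 2.0 ST arrays. According to the methods, the authors pre-processed the array files by robust multi-array averaging (RMA) with Expression Console and removed kit effects with ComBat in R 3.0.2. The values deposited by the authors are log2 signals between 2.79 and 14.47, and they still differed between RNA kits. Arrays have no read depth, so the number of rats limits the precision. Of 36685 probesets, 18511 carried 1 symbol in GEO's platform annotation, 575 several and 17599 none. For 291 genes the probeset with the highest mean was used.

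Groups were taken from the labels. The 8 groups of 40 chemical-exposed rats were fitted with the kit as a term in limma 3.58.1 under R 4.3.3, a step tested on simulated data. Genes were called at 1.5-fold or more with a Benjamini-Hochberg p under 0.25, the thresholds of the study. F tests had no fold limit. Chemicals and oil were set side by side in 1 fit of 50 rats. Correlations used 100000 permutations (seed 11). Promoters were searched on both strands in Python 3.11.15 and aligned with biopython 1.88, and figures were drawn with matplotlib 3.10.9. The members and gene lists were chosen with earlier results of these data known. Named are the members, up to 4 called genes of each list (otherwise the 2 brightest), the 5 genes most like the members and the cluster's neighbours. Others named (Lcn2, Defb1, Reg1a, Reg4, Fgg, Il22, Il17a, Il17f, Il23r and Il6 with their values, and the genes most like each single member) were chosen after their values were seen. Named genes of lists without a role in the text are not printed. Alternatives were no kit term, each kit alone, all 50 rats, filters on intensity and variance, every named probeset, trended and robust estimation, array weights, quantile normalization, epithelial or lymphoid scores as covariates, the 10 rats of a chemical, another threshold and each rat left out in turn. A kit by parity term, residuals of group and kit cells and correlations without the oil controls were added after the data were seen.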

Additional observations from a re-analysis of the deposited data

Results flagged for a closer look

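In 4 of 30 sets of 5 rats (3 genes in 10 groups), 1 rat stood apart from the other 4 by Dixon's criterion, which chance alone meets in about 1 of 20 sets. Reg3a was 5.10 in DEP_par_46, against 5.83 to 6.06 in the other parous DEP rats, and this was the only Promega rat of that group. Reg3g was 5.65 in DEP_par_38, against 9.47 to 11 in the other parous DEP rats, and 9.35 in TCS_par_239, against 6.06 to 6.82 in the other parous TCS rats. Reg3g was also 10.24 in OIL_null_429, against 6.62 to 7.28 in the other nulliparous oil rats. The lymphoid scores were −1.06 in DEP_par_38, 1.69 in TCS_par_239 and 1.28 in OIL_null_429, and their part in these values was not tested.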

How the results depend on the processing

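The parity difference of Reg3a over 40 rats kept its call under all alternatives run (−2.31 to −0.94) and without any 1 rat (−1.72 to −1.58). That of Reg3b kept its call except with no kit term (−1.50, adjusted p = 0.345) and among Zymo rats (−1.74, adjusted p = 0.282), and was −1.57 to −1.36 without any 1 rat. That of Reg3g was not called under any alternative (−0.68 among Zymo rats to 0.70 among Promega rats; −0.01 to 0.42 without 1 rat). Of all genes 90 were called, against 53 with no kit term, 25 among Zymo rats, 336 among Promega rats, 733 at an adjusted p under 0.05 with no fold limit, and 75 to 114 without 1 rat. Within chemicals, calls were lost with no kit term for Reg3a in DEP (−1.65), MPB (−1.40), TCS (−1.98) and MIX (−1.63) and for Reg3b in TCS (−2.32) and MIX (−2.02). Among Zymo rats, of which MPB, TCS and MIX groups held 2 each, they were lost for Reg3a in MPB (−2.37), TCS (−2.84) and MIX (−2.05) and for Reg3b in TCS (−2.82) and MIX (−1.82). In fits of the 10 rats of a chemical they were lost for Reg3a in DEP (−1.65, adjusted p = 0.446) and MIX (−1.63, adjusted p = 0.259) and for Reg3b in MIX (−2.02, adjusted p = 0.259), and gained for Reg3b in MPB (−1.08, adjusted p = 0.144). The cause of these changes was not tested. Without 1 rat, Reg3a gave −1.87 to −1.32 in DEP, −1.64 to −1.09 in MPB, −2.10 to −1.80 in TCS and −1.78 to −1.45 in MIX. Reg3b gave −0.85 to −0.01, −1.24 to −0.91, −2.47 to −2.07 and −2.28 to −1.81, and Reg3g 0.41 to 1.92, 0.61 to 1.85, −1.93 to −0.90 and −0.81 to 0.26, in the same order. The MIX call of Reg3a was lost without MPB_null_129, TCS_null_227, MIX_null_328, MIX_null_329, MIX_null_331, MIX_par_337 or MIX_par_340, and that of Reg3b without these or DEP_par_46, MPB_null_128, MPB_null_131, MPB_par_142, TCS_null_229, TCS_null_230, TCS_null_231 or MIX_par_338. Reg3b was called in MPB without DEP_par_38 (adjusted p = 0.224). The adjusted p of the F test among parous rats ranged from 0.0185 to 0.457 for Reg3b and from 0.0298 to 0.532 for Reg3g without 1 rat. It fell under the threshold for both without DEP_null_31, DEP_par_38, MPB_par_137, TCS_par_239 or MIX_par_341, for Reg3b without DEP_null_29, and for Reg3g without MPB_par_139 or MIX_null_331. For Reg3a it ranged from 0.457 to 0.736. Among nulliparous rats it ranged from 0.339 to 0.806 for Reg3a, 0.476 to 0.864 for Reg3b and 0.481 to 0.782 for Reg3g, and for the interaction from 0.821 to 0.983, 0.278 to 0.94 and 0.42 to 0.94. In oil controls the Reg3a difference was −2.94 among Zymo and −0.96 among Promega rats, and without 1 rat it was −2.03 to −1.53, that of Reg3b −1.55 to −1.33 and that of Reg3g −0.52 to 0.70. The planned correlations used residuals of all 50 rats, which mix the lymphoid sets. Those of Reg3b and Reg3g correlated with r = 0.555, and with r = 0.266 with no kit term. Reg3a and Reg3b gave r = 0.551, and Reg3a and Reg3g r = 0.109. These values are given as a description since the oil controls are included. No paired analysis was made, since the labels give each rat its own identification number and name no pairs or litters.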
